A study of Mus musculus with 16 samples.

Results

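The tumour suppressor p53 gene Trp53 and 9 genes that p53 is known to activate were followed in newly made RNA of mouse embryonic stem cells labelled as Mettl14 knockout and in their controls. The 10 genes were chosen by name, with earlier results of these data known, and all 10 were found among the 54446 mouse gene identifiers of each library. They are Trp53 itself, its feedback genes Mdm2 and Ccng1, the growth arrest and stress genes Cdkn1a and Sesn2, the apoptosis genes Bax, Bbc3 and Phlda3, and Trp53inp1 and Zmat3. All cells were C57BL/6 embryonic stem cells, self-renewing cultured cells of the early embryo, grown with LIF, the GSK3 inhibitor CHIR99021 and the MEK inhibitor PD0325901. The groups were a Mettl14 conditional knockout (CKO) and a Control genotype, each labelled with 0.5 mM 5-ethynyl uridine (EU) during the last 10, 20, 30 or 60 min of culture, with 2 libraries per genotype and time and 16 in all. EU is built into RNA as it is transcribed, and RNA that carries it was captured and sequenced, which the labels describe as nascent polyA RNA. The labels do not say how or when Mettl14 was deleted, whether the cells were 1 clone, or whether replicate libraries are separate cultures. P-values thus reflect the spread among replicate libraries, and that spread may be technical. In the fits over EU times they also reflect how far the genotype difference varied between the times.

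METTL14 binds METTL3, and the pair methylates adenosines of messenger RNA. The p53 protein is a transcription factor that is held at a low level by MDM2, which marks it for destruction, and accumulates after DNA damage and other stress. It binds a paired sequence element near its targets and switches on genes for cell cycle arrest, apoptosis and repair, together with Mdm2 and Ccng1, which restrain it. Mouse embryonic stem cells hold much p53 protein compared with differentiated cells, and much of the control of p53 acts on the protein, which RNA levels do not show.

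The p53 element was looked for in the promoters, because it is the sequence feature that the 9 targets are known to share. RefSeq (build GRCm38.p6) gave 11 promoter windows, each from 250 bases before to 50 bases after a transcription start, for 8 of the 10 genes. Trp53inp1 and Zmat3 had none. The full p53 consensus, 20 bases made of a pair of the 10-base p53 motifs with no gap, reads the same on both strands. A site was counted if its 4 fixed C and G letters were present and at most 3 of the 20 letters went against the consensus. Such a site lay in 4 windows of the set, and in 453 of all 32851 windows (1.38%). With at most 1 letter against the consensus, 2 windows of the set, of Cdkn1a and Ccng1, had a site, against 22 of 32851 (0.067%). The 3 target gene promoters with a site are shown 5′ to 3′ with the site in capitals, on the plus strand for Cdkn1a at chr17:29090729-29091028 and Bbc3 at chr7:16309333-16309632, and on the minus strand for Ccng1 at chr11:40755237-40755536.
Cdkn1a: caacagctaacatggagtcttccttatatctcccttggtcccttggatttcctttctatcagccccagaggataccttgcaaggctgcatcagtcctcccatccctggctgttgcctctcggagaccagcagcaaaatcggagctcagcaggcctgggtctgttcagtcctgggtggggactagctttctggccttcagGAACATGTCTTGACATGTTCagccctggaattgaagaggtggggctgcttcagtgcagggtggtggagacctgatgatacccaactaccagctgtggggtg
Ccng1: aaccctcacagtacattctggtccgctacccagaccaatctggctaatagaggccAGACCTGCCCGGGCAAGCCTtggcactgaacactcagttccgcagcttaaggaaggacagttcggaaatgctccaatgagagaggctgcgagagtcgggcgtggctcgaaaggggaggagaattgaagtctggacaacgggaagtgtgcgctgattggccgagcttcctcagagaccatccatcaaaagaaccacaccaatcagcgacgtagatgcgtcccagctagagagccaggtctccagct
Bbc3: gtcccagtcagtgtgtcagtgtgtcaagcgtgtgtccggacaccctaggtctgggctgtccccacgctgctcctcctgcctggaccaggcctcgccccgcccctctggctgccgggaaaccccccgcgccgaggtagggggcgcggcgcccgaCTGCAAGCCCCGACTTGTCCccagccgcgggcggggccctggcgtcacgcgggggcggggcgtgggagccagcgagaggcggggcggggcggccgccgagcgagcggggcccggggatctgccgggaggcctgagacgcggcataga
Counted from the transcription start of the window shown, the Cdkn1a site spans −51 to −32, the Ccng1 site −195 to −176 and the Bbc3 site, with 3 letters against the consensus, −97 to −78. Cdkn1a and Bbc3 also have windows at other starts. The other windows of Cdkn1a and Bbc3 held no such site, and neither did those of Mdm2, Sesn2, Bax and Phlda3. Sequence outside the windows and motif pairs with a gap were not searched, so these genes may hold an element elsewhere. The site in the Trp53 window, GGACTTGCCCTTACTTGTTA at −75 to −56, also had 3 letters against the consensus. A match is a description of these letters, and no binding was measured here.

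Depth, as total mouse counts, was 11902184 to 26557342 in the CKO libraries of 10, 20 and 60 min, 5188643 and 5109162 in those of 30 min, and 12883425 to 28502750 in Control. The CKO 30 min libraries stood apart from the rest: they detected 30583 and 31826 identifiers, against at most 26857 in the other 14, and their log2 levels correlated with Pearson r = 0.7204 across genes, against 0.9168 to 0.9788 between the libraries of the other groups. The calls over EU times and of genotype by EU time are therefore given with and without the 30 min libraries. Values at single times and from 10 to 60 min come from a fit that includes them, unless stated. Levels are CPM after TMM scaling, that is, counts relative to the scaled mouse total of a library, so that every change is relative to other genes. On this scale all identifiers tested had a median log2 fold change of 0.61 at 30 min, and of 0.19 in the fit of the 16 libraries. They are not compared between genes, whose lengths differ. In such bulk samples, fewer cells that express a gene and less RNA per cell cannot be told apart. Mettl14 itself, markers of stem cells and of other cell types, and further p53 pathway genes were not analysed here, because the files name genes by Ensembl identifier and the gene table used here pairs none of them with a symbol. The genotype labels and the cell type were therefore not checked.

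**Figure D1:**
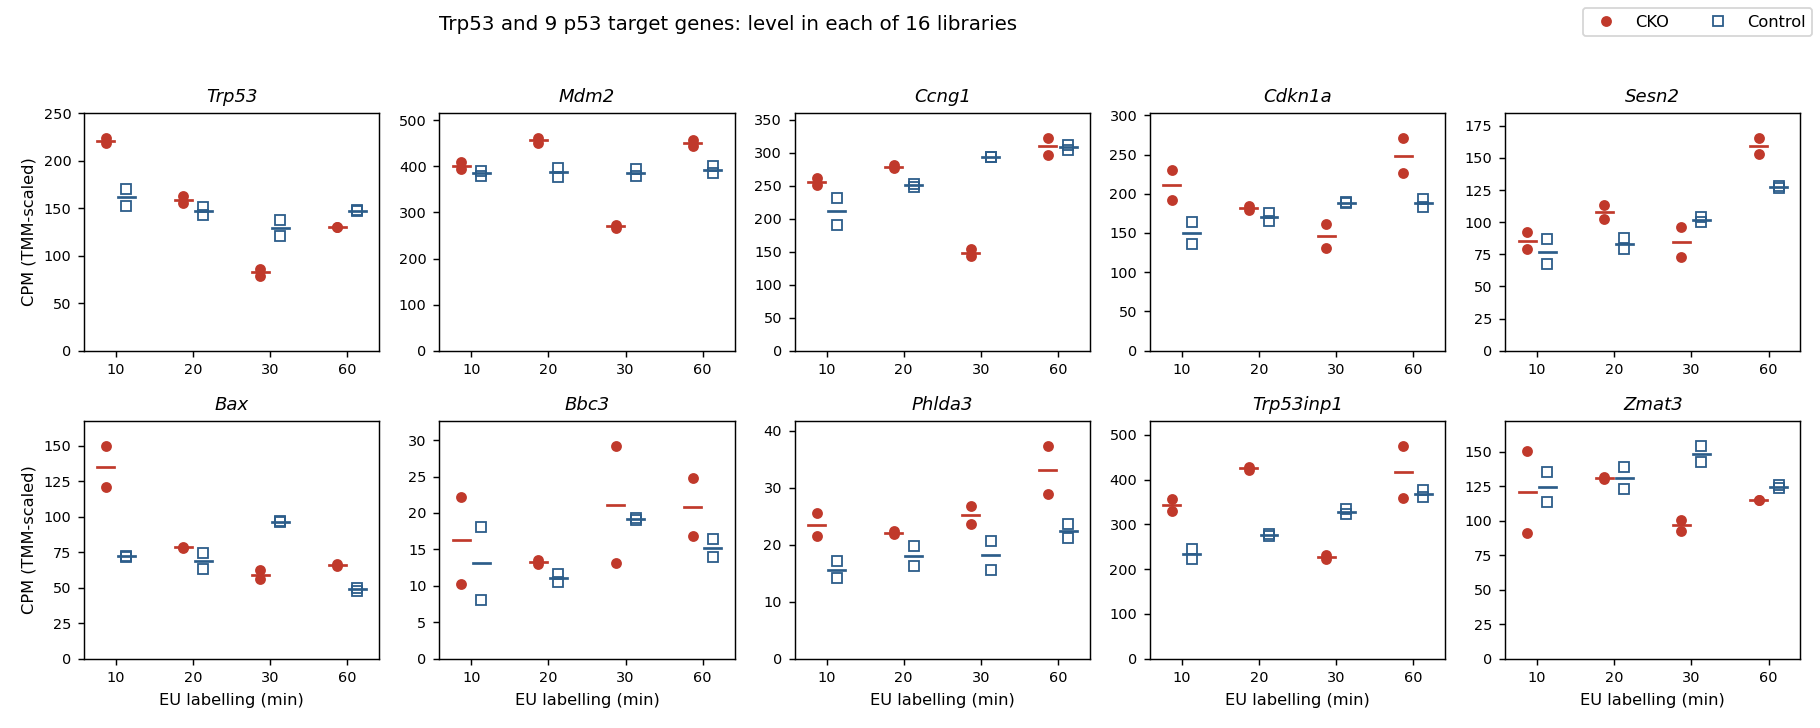
TMM-scaled CPM (vertical axis, from 0) of Trp53 and 9 p53 target genes in each library, by EU labelling time in min (horizontal axis). Filled circles are CKO and open squares Control libraries, and bars are the means of 2 libraries. At 30 min both CKO libraries lie below both Control libraries for 8 genes (64.2% of the 9245 identifiers with at least 10 CPM), and at 20 min above for 9 (30.5%).

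The main test, over all 4 EU times, called 1 of the 10 genes, Phlda3, as given in the next paragraph. Leaving out the 30 min libraries was an alternative to that test. In that fit, newly made RNA of 5 of the 10 genes rose in CKO cells. Over 10, 20 and 60 min, Bax rose 1.407-fold, Phlda3 1.383-fold, Trp53inp1 1.352-fold, Cdkn1a 1.244-fold and Sesn2 1.204-fold. These are a promoter of mitochondrial apoptosis, a repressor of the AKT survival kinase, a stress protein that acts with p53 in apoptosis and autophagy, the cyclin-dependent kinase inhibitor p21, and a sensor protein that restrains mTORC1. Trp53, Mdm2, Ccng1, Bbc3 and Zmat3 did not pass the test, and none of the 10 genes was called lower. The background of this comparison was 6.55% of 20204 identifiers called higher in CKO, and 12.0% of the 9245 with at least 10 CPM. All 10 genes reached that level on average over the libraries of 10, 20 and 60 min. Of those 9245 identifiers, 23.1% were called in either direction, so that lower calls were nearly as common as higher ones. The absence of lower calls among 10 genes is therefore not far from the background. The 10 genes had a median log2 fold change of 0.29 and those 9245 identifiers one of −0.02, and 9 of the 10 values were positive, against 47.2% of the 9245. Because the genes were chosen with earlier results of these data known, such comparisons of the set, here and below, are a description.

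With all 4 EU times in the fit, 1 of the 10 genes, Phlda3, was called (background 6.77% of 27488 identifiers called higher, and 5.84% of those with at least 10 CPM). The log2 fold changes of the 5 genes in the 2 fits, each with its standard error (SE) and Benjamini-Hochberg adjusted p from edgeR, follow. For Bax it was 0.49 (SE 0.10, adjusted p = 0.00237) without the 30 min libraries and 0.22 (SE 0.15, adjusted p = 0.366) with them. For Trp53inp1 it was 0.44 (SE 0.08, adjusted p = 0.0012) and 0.21 (SE 0.13, adjusted p = 0.295). These are the most firmly called of the set, and both stayed past the threshold of 0.05 in each of the 12 fits that left out a further library. For Cdkn1a it was 0.31 (SE 0.08, adjusted p = 0.0149) and 0.16 (SE 0.11, adjusted p = 0.379). For Sesn2 it was 0.27 (SE 0.08, adjusted p = 0.0342) and 0.15 (SE 0.11, adjusted p = 0.382). Phlda3 hardly moved between the fits, with 0.47 (SE 0.12, adjusted p = 0.0146) without the 30 min libraries and 0.48 (SE 0.12, adjusted p = 0.0147) with them. Cdkn1a was called in 11 and Phlda3 in 10 of the 12 fits. Sesn2 was called in 2 of them, with a log2 fold change that stayed between 0.23 and 0.33, so that its call is borderline.

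**Figure D2:**
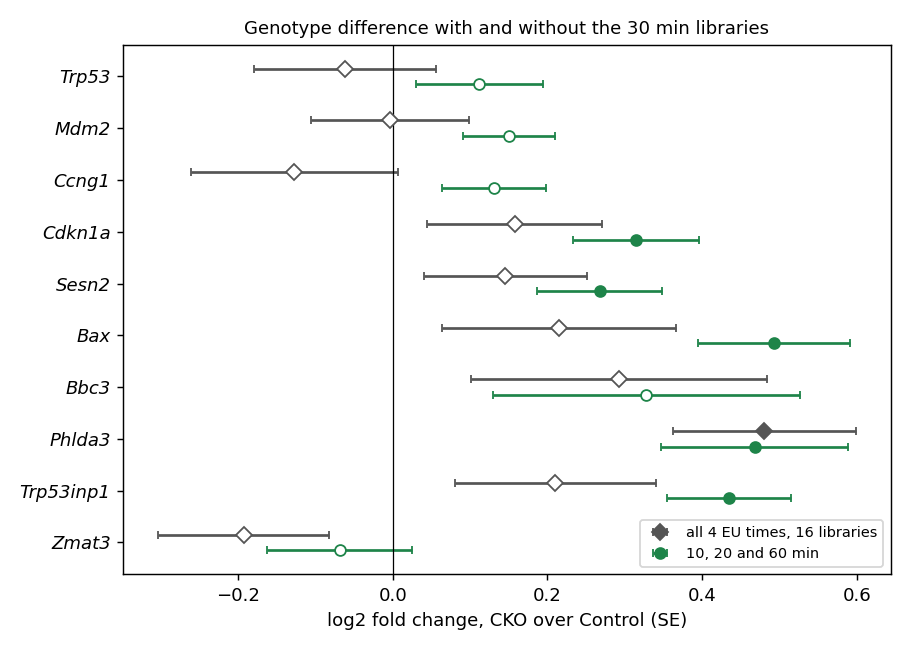
Log2 fold change of CKO over Control (horizontal axis, error bars SE) for each gene, from the 16 libraries of all EU times (diamonds) and from the 12 libraries of 10, 20 and 60 min (circles). Filled symbols passed an adjusted p of 0.05: Phlda3 alone with all libraries, and Cdkn1a, Sesn2, Bax, Phlda3 and Trp53inp1 without the 30 min libraries.

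Trp53 (ENSMUSG00000059552.13, chromosome 11, 69580348 to 69591873 on GRCm38) encodes p53. Its RNA read 224 and 218 CPM in CKO libraries at 10 min, against 153 and 170.5 CPM in Control, and 155 and 163 CPM in CKO at 20 min, against 143 and 152 CPM in Control. At 30 min it read 86.4 and 79.1 CPM in CKO and 138 and 121 CPM in Control, and at 60 min 131 and 130.2 CPM in CKO and 148 and 147 CPM in Control. Both CKO libraries were thus above both Control libraries at 10 and 20 min, and below them at 30 and 60 min. The log2 fold change was 0.45 at 10 min (SE 0.10, edgeR adjusted p = 0.00241), 0.11 at 20 min (SE 0.10, adjusted p = 0.984), −0.64 at 30 min (SE 0.10, adjusted p = 2.01e-05) and −0.18 at 60 min (SE 0.10, adjusted p = 0.622). The genotype difference varied with EU time (edgeR F-test over the 4 times, adjusted p = 1.48e-05), and did so as well without the 30 min libraries (adjusted p = 0.0158). Averaged over the times Trp53 did not pass the test, with 0.11 (SE 0.08, adjusted p = 0.424) without the 30 min libraries. The call at 10 min was lost when the first Control 10 min library was left out (adjusted p = 0.0982).

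The feedback genes moved little outside the 30 min libraries. Mdm2 (ENSMUSG00000020184.15, chromosome 10, 117688875 to 117710758), the ubiquitin ligase that degrades p53, read 393 and 410.4 CPM in CKO at 10 min, against 391 and 379 CPM in Control, and 443 and 457 CPM in CKO at 60 min, against 401 and 385 CPM in Control. At 20 min it read 461 and 452 CPM in CKO and 378 and 396 CPM in Control, and at 30 min 274 and 266 CPM in CKO and 394 and 379 CPM in Control. In Control its mean stayed between 385 and 393 CPM at all 4 times, and the CKO 30 min libraries were the lowest of all 16. Its log2 fold change over 10, 20 and 60 min was 0.15 (SE 0.06, edgeR adjusted p = 0.107), and its 20 min value of 0.24 (SE 0.07, adjusted p = 0.195) passed only with DESeq2 or in a fit of the 4 libraries alone. Ccng1 (ENSMUSG00000020326.7, chromosome 11, 40748552 to 40755309), which encodes cyclin G1, read 262 and 250.4 CPM in CKO at 10 min, against 232 and 190.3 CPM in Control, and 297 and 322 CPM in CKO at 60 min, against 312 and 305 CPM in Control. It was called higher at 10 min, by 0.28 (SE 0.09, edgeR adjusted p = 0.0444), a call kept in 3 of the 16 fits that left out a library. At 20 min it read 281 and 277 CPM in CKO and 248 and 253 CPM in Control, and its mean at 60 min was 309.5 CPM in CKO and 308 CPM in Control. At 30 min it had the largest fall of the 10 genes, 154 and 144 CPM in CKO against 293.2 and 293 CPM in Control.

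Cdkn1a (ENSMUSG00000023067.14, chromosome 17, 29090979 to 29100722) encodes p21, the inhibitor of cyclin-dependent kinases that carries much of the arrest by p53. It read 231 and 193 CPM in CKO at 10 min, against 136 and 164 CPM in Control, and 184 and 179 CPM in CKO at 20 min, against 166 and 175 CPM in Control. At 30 min it read 130.3 and 162 CPM in CKO and 189 and 188 CPM in Control, and at 60 min 271 and 226 CPM in CKO and 193 and 183 CPM in Control. The CKO libraries lay above both Control libraries at 10, 20 and 60 min and below them at 30 min. It rose 1.408-fold at 10 min, a log2 fold change of 0.49 (SE 0.11, edgeR adjusted p = 0.00432). At 60 min it was 0.40 (SE 0.11, adjusted p = 0.0534, and 0.0412 without the 30 min libraries), and at 20 min 0.09 (SE 0.11, adjusted p = 1.0). The 10 min call was lost without the first CKO (adjusted p = 0.12) or the first Control 10 min library (adjusted p = 0.147).

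Sesn2 (ENSMUSG00000028893.8, chromosome 4, 132492804 to 132510456) encodes sestrin 2, which restrains mTORC1 and is induced by several kinds of stress besides p53. It read 92.1 and 78.9 CPM in CKO at 10 min, against 67.1 and 87.3 CPM in Control, and 113 and 103 CPM in CKO at 20 min, against 87.3 and 79.4 CPM in Control. The 30 min libraries held 73.1 and 95.9 CPM in CKO and 100.4 and 104 CPM in Control, and at 60 min 165 and 153 CPM in CKO and 128 and 126.5 CPM in Control. The libraries of the genotypes overlapped at 10 min and separated at the other times. At no EU time did it pass the test, the log2 fold changes being 0.15 at 10 min (SE 0.13, edgeR adjusted p = 0.565), 0.37 at 20 min (SE 0.13, adjusted p = 0.332), −0.27 at 30 min (SE 0.13, adjusted p = 0.0941) and 0.32 at 60 min (SE 0.13, adjusted p = 0.284).

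Among the apoptosis genes, Bax (ENSMUSG00000003873.11, chromosome 7, 45461695 to 45466903), whose protein opens the outer mitochondrial membrane, had the largest fold change at 10 min. It read 121 and 149 CPM in CKO at 10 min, against 71.8 and 72.2 CPM in Control, and 78.0 and 79.0 CPM in CKO at 20 min, against 74.3 and 63.4 CPM in Control. The 30 min libraries held 62.4 and 56.2 CPM in CKO and 96.7 and 96.4 CPM in Control, and at 60 min 65.0 and 66.8 CPM in CKO and 49.9 and 48.0 CPM in Control. Both CKO libraries were above both Control libraries at 10, 20 and 60 min, and its CKO 10 min libraries were the highest of all 16. It rose 1.877-fold at 10 min, a log2 fold change of 0.91 (SE 0.12, edgeR adjusted p = 9.73e-06), which was called in all 16 fits that left out a library. At 20 min the value was 0.19 (SE 0.12, adjusted p = 0.889) and at 60 min 0.43 (SE 0.12, adjusted p = 0.0608, and 0.038 without the 30 min libraries). Its genotype difference varied with EU time (adjusted p = 1.84e-06, and 0.0400 without the 30 min libraries).

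Phlda3 (ENSMUSG00000041801.5, chromosome 1, 135766085 to 135769134), whose protein competes with AKT for membrane lipids, was measured from few counts, 148 to 701 per library. It read 25.6 and 21.5 CPM in CKO at 10 min, against 17.1 and 14.2 CPM in Control, 21.9 and 22.4 CPM in CKO at 20 min, against 16.3 and 19.8 CPM in Control, and 26.9 and 23.7 CPM in CKO at 30 min, against 15.6 and 20.7 CPM in Control. At 60 min it read 37.2 and 28.9 CPM in CKO and 23.6 and 21.1 CPM in Control. Both CKO libraries lay above both Control libraries at all 4 EU times, 30 min included, which held for no other gene of the 10. At 30 min alone that held for 10.9% of the identifiers with at least 10 CPM, and the share for all 4 times was not computed. Its 30 min value, given next, lies below the median of all identifiers tested at that time, stated above. Whether its low counts have a part in this was not tested. Its log2 fold changes were 0.59, 0.29, 0.47 and 0.57 at 10, 20, 30 and 60 min (SE 0.22 to 0.23), none of them past the test at a single time, and they did not differ detectably between the times (edgeR adjusted p = 0.921). The call over all EU times was kept in each of the 16 fits that left out a library, with adjusted p from 0.013 to 0.0456. Bbc3 (ENSMUSG00000002083.13, chromosome 7, 16308398 to 16318334), which encodes the BH3-only protein PUMA, had 82 to 467 counts per library, and its replicates disagreed, with 22.2 and 10.3 CPM in CKO at 10 min, against 8.1 and 18.1 CPM in Control. It read 12.9 and 13.6 CPM in CKO at 20 min, against 10.6 and 11.6 CPM in Control, 13.1 and 29.1 CPM in CKO at 30 min, against 19.3 and 19 CPM in Control, and 24.8 and 16.8 CPM in CKO at 60 min, against 14 and 16.4 CPM in Control. The genotypes overlapped at 10 and 30 min. Its log2 fold change over 10, 20 and 60 min, 0.33 (SE 0.20, edgeR adjusted p = 0.315), was as large as that of Cdkn1a with a wider error, and no difference was detectable at this depth.

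Trp53inp1 (ENSMUSG00000028211.11, chromosome 4, 11156441 to 11174379) encodes a stress protein that promotes p53 activity, apoptosis and autophagy. It read 329 and 357 CPM in CKO at 10 min, against 223 and 244 CPM in Control, and 429 and 421 CPM in CKO at 20 min, against 278 and 274 CPM in Control. The 30 min libraries held 232 and 223 CPM in CKO and 334 and 323 CPM in Control, and at 60 min 359 and 474 CPM in CKO and 377 and 360.2 CPM in Control. The genotypes were apart at 10 and 20 min and overlapped at 60 min, where the CKO libraries disagreed. It rose 1.468-fold at 10 min, a log2 fold change of 0.55 (SE 0.10, edgeR adjusted p = 0.000284), and 1.541-fold at 20 min, 0.62 (SE 0.10, adjusted p = 0.000538), both of them called in all 16 fits that left out a library. At 60 min the value was 0.18 (SE 0.10, adjusted p = 0.624). Its genotype difference varied with EU time with all libraries (edgeR adjusted p = 1.9e-06) and not detectably without the 30 min libraries (adjusted p = 0.115). Zmat3 (ENSMUSG00000027663.12, chromosome 3, 32334792 to 32365665), an RNA-binding zinc finger protein, was the only gene of the set with a negative log2 fold change over 10, 20 and 60 min, −0.07 (SE 0.09, adjusted p = 0.703). It read 150.3 and 91.5 CPM in CKO at 10 min, against 114 and 135.5 CPM in Control, and 132 and 130.1 CPM in CKO at 20 min, against 139 and 123 CPM in Control. At 30 min it read 100.6 and 92.7 CPM in CKO and 143 and 154 CPM in Control, and at 60 min 115 and 115.5 CPM in CKO and 124 and 126 CPM in Control. The genotypes overlapped at 10 and 20 min, and both CKO libraries lay below both Control libraries at 30 and 60 min. At 60 min that held for 34.4% of the identifiers with at least 10 CPM. The Zmat3 log2 fold change at 60 min, −0.12 (SE 0.14, edgeR adjusted p = 0.994), did not pass the test.

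The calls by EU time were as follows, and whether they differ between the times was tested per gene, as given for each. At 10 min 5 of the 10 genes were called higher in CKO, Trp53, Ccng1, Cdkn1a, Bax and Trp53inp1 (background 6.45% of all identifiers and 15.8% of those with at least 10 CPM), and 9 of 10 log2 fold changes were positive. At 20 min 1 was called higher, Trp53inp1 (background 0.706% and 2.02%), although both CKO libraries lay above both Control libraries for 9 of 10, against 30.5% of the identifiers with at least 10 CPM. That held for 7 of 10 at 10 min (31.9%) and for 6 of 10 at 60 min (33.4%). At 60 min edgeR called 0 of 10 (background 2.63%, and 7.56% at 10 CPM and above), with 5 at an unadjusted p under 0.05, while DESeq2 called 5, 4 higher and 1 lower (background 7.17%, and 19.9% at 10 CPM and above). The median log2 fold change of the 10 genes was 0.38 at 10 min, 0.21 at 20 min and 0.26 at 60 min, against 0.01, 0.00 and −0.01 over the 9245 identifiers with at least 10 CPM. Without the 30 min libraries in the fit the counts were 4, 1 and 2 (background 17.9%, 2.59% and 6.25% higher at 10 CPM and above), Ccng1 being lost at 10 min (edgeR adjusted p = 0.0564) and Bax and Cdkn1a gained at 60 min.

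**Figure D3:**
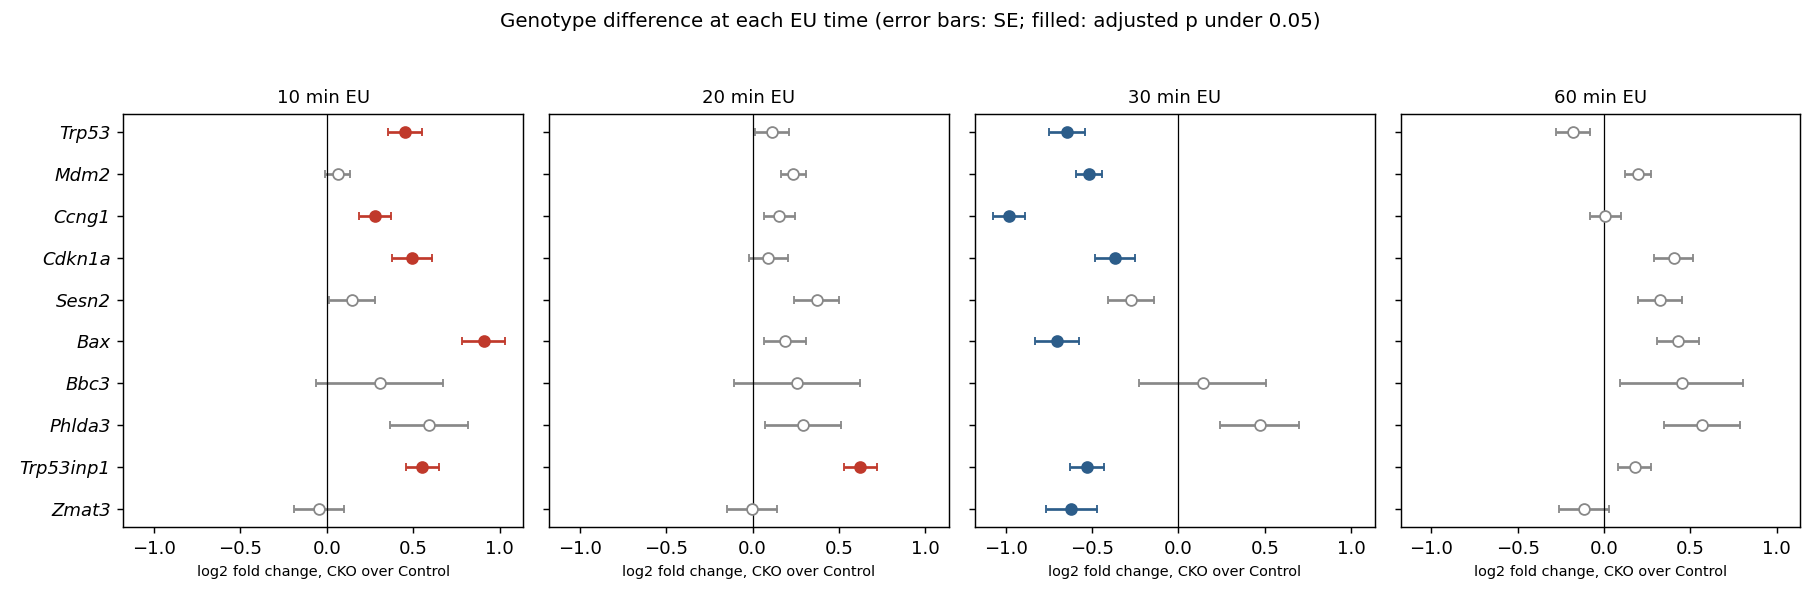
Log2 fold change of CKO over Control (horizontal axis, error bars SE) for each gene in 4 panels, 1 per EU time. Filled symbols passed an adjusted p of 0.05: 5 genes higher at 10 min, Trp53inp1 higher at 20 min, 7 genes lower at 30 min and none at 60 min.

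At 30 min the direction was the opposite. Trp53, Mdm2, Ccng1, Cdkn1a, Bax, Trp53inp1 and Zmat3, 7 of the 10, were called lower in CKO, with log2 fold changes from −0.37 (SE 0.12, edgeR adjusted p = 0.0134) for Cdkn1a to −0.98 (SE 0.09, adjusted p = 7.8e-09) for Ccng1. The background was 19.1% of all identifiers called lower and 51.6% of those with at least 10 CPM. The median was −0.52 over the 10 genes and −0.46 over those 9245 identifiers, so that the fall of the set was near that of other abundant genes in these libraries. Phlda3, at 0.47 (SE 0.23, edgeR adjusted p = 0.0895), and Bbc3, at 0.14 (SE 0.37, adjusted p = 0.762), did not pass the test in either direction. Phlda3 was called higher with DESeq2 (0.75, adjusted p = 0.00164), with DESeq2 size factors or library totals in edgeR and with a stricter count filter. Those settings called 13.5%, 12.2%, 13.2% and 9.13% of the identifiers with at least 10 CPM higher, in that order, against 5.64% in the main fit. Sizes at 30 min depended on the scaling. Under the other settings tried, the log2 fold change ranged from −0.58 to −0.21 for Mdm2, which stayed called, from −0.59 to −0.22 for Trp53inp1 and from −0.67 to −0.31 for Zmat3. The Trp53inp1 call was lost with ERCC scaling (edgeR adjusted p = 0.0521) and library totals (adjusted p = 0.0514), and the Zmat3 call with DESeq2 (adjusted p = 0.101), DESeq2 size factors (edgeR adjusted p = 0.0594) and library totals (adjusted p = 0.0938). The Cdkn1a value depended on the setting: it was −0.09 with DESeq2 (adjusted p = 0.55), −0.06 with library totals (edgeR adjusted p = 0.685) and −0.19 with a stricter count filter (adjusted p = 0.203). The call was also lost without either Control 30 min library (edgeR adjusted p = 0.112 and 0.101), without the first CKO 30 min library (adjusted p = 0.148), with DESeq2 size factors (adjusted p = 0.518), with ERCC scaling (adjusted p = 0.0843) and in a fit of the 4 libraries alone (adjusted p = 0.0627). The part that the low depth and the many identifiers detected in these libraries have in the values was not tested. Of the 10 genes, 7 had a genotype difference that varied with EU time when all libraries were used (background 22.7%, and 46.6% at 10 CPM and above), and 2, Trp53 and Bax, when the 30 min libraries were left out (background 5.58%, and 11.1%).

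With longer labelling, captured RNA holds older transcripts in addition to new ones, and the genes differed in how their share of it changed. Sesn2 rose 1.864-fold in CKO between 10 and 60 min of EU (log2 0.90, SE 0.13, edgeR adjusted p = 1.3e-05) and 1.648-fold in Control (log2 0.72, SE 0.13, adjusted p = 0.000352). Ccng1 rose by 0.27 in CKO (SE 0.09, adjusted p = 0.0402, kept in 5 of 16 fits that left out a library) and by 0.55 in Control (SE 0.09, adjusted p = 0.00011). Trp53inp1 was 0.28 in CKO (SE 0.10, adjusted p = 0.0507) and rose by 0.66 in Control (SE 0.10, adjusted p = 2.74e-05). Bax lost share in both genotypes, with −1.04 in CKO (SE 0.12, adjusted p = 6.1e-07) and −0.56 in Control (SE 0.12, adjusted p = 0.00273, and 0.0794 without the second Control 60 min library). Trp53 lost share in CKO, −0.76 (SE 0.10, adjusted p = 2.13e-06), whereas its value in Control was −0.13 (SE 0.10, adjusted p = 0.493). Whether these changes differed between the genotypes was not tested by themselves; the test of genotype by EU time, given above, covers all 4 times. In CKO 4 of 10 genes were called, 2 in each direction (background 15.2%, and 38.3% at 10 CPM and above). In Control 4 were called, 3 that rose and Bax that fell (background 10.1%, and 25.6% at 10 CPM and above). Without the 30 min libraries in the fit the same genes were called. The background at 10 CPM and above was then 45.8% in CKO and 33.2% in Control. These values are relative: with ERCC scaling all 10 genes were called higher at 60 than at 10 min in both genotypes, Bax and Trp53 included, as were 98.8% in CKO and 100.0% in Control of the identifiers with at least 10 CPM.

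**Figure D4:**
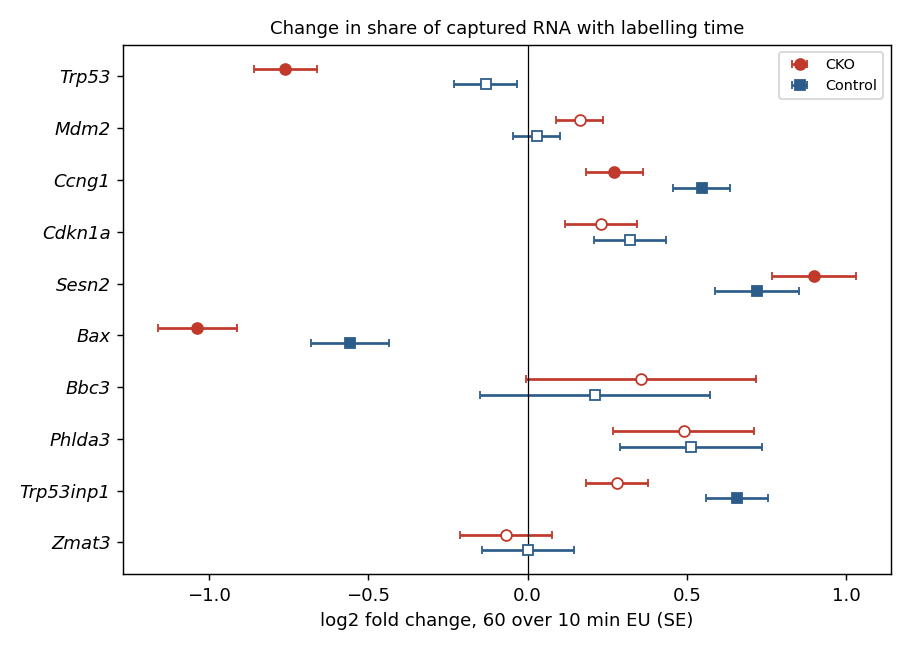
Log2 fold change of 60 over 10 min of EU labelling (horizontal axis, error bars SE) in CKO (circles) and Control (squares). Filled symbols passed an adjusted p of 0.05. Bax lies left of 0 in both genotypes, Sesn2 right of 0 in both, and Trp53 is filled in CKO alone.

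ERCC spike-in RNA, a fixed amount per sample, was added before library construction, so that counts per ERCC count follow the amount of captured RNA along with differences in recovery. Trp53 averaged 6.65 per 1000 ERCC counts in CKO and 1.95 in Control at 10 min, and 16.9 in CKO and 18.5 in Control at 60 min (n = 2 each), so that Trp53 grew 2.55-fold in CKO and 9.53-fold in Control. Sesn2 grew 8.06-fold in CKO and 17.2-fold in Control, and Bax 2.09-fold in CKO and 7.1-fold in Control. The growth was smaller in CKO for each of the 10 genes, as it was for 99.6% of the 9245 identifiers with at least 10 CPM, whose median growth was 4.57-fold in CKO and 11-fold in Control. For the 10 genes the CKO level was 2.38 to 4.73 times that of Control at 10 min and 0.912 to 1.51 times at 60 min. All genes of a library share its ERCC count, and 99.6% of the 9245 identifiers with at least 10 CPM were also higher in CKO at 10 min on this scale. With ERCC scaling in edgeR all 10 genes were called higher at 10 min (background 43.1%, and 91.4% at 10 CPM and above).

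The least squares slope on EU minutes, a measure of accumulation per min, was lower in CKO for 5 of the 10 genes and higher for 5, with a median ratio of CKO over Control of 1.0. Because 30 min is the mean of the EU times, the 30 min libraries do not move these slopes, although they enter their SE. Trp53 had the lowest ratio, 0.623, with 0.201 ± 0.05 per 1000 ERCC counts and min in CKO and 0.323 ± 0.019 in Control (SE of the slope, n = 8 each). Phlda3 had the highest, 1.38, with 0.0717 ± 0.0073 in CKO and 0.0517 ± 0.0042 in Control (SE of the slope, n = 8 each). Cdkn1a had a ratio of 1.22, Sesn2 of 1.19, Bbc3 of 1.27 and Mdm2 of 1.02, while Zmat3 had 0.786, Ccng1 0.891, Bax 0.942 and Trp53inp1 0.978. These ratios are a description and were not tested. Slopes of other identifiers were not computed, so how common such ratios are among them is not known.

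**Figure D5:**
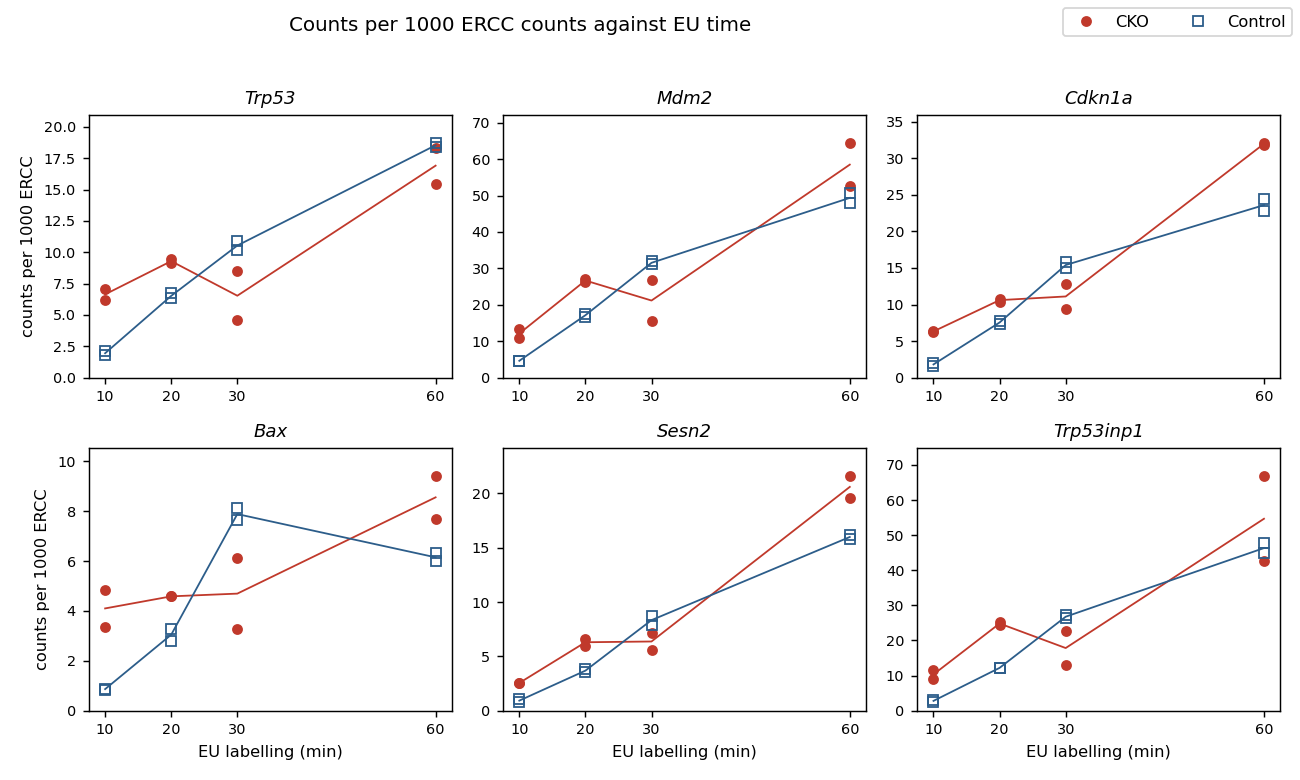
Counts per 1000 ERCC counts (vertical axis, from 0) of 6 genes against EU time in min (horizontal axis). Filled circles are CKO and open squares Control libraries, and lines join the means of 2 libraries. CKO libraries start above Control at 10 min for all 6 genes. At 60 min the Trp53 mean is lower in CKO while those of Mdm2, Cdkn1a, Bax, Sesn2 and Trp53inp1 are higher.

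The levels of Trp53 and of its targets were also set against each other across libraries. Over the 14 libraries outside CKO 30 min, Pearson's r of log2 CPM with Trp53 was −0.0285 for Cdkn1a, −0.0794 for Mdm2 and −0.458 for Ccng1, and 0.573 for Bax. With the CKO 30 min libraries included these were 0.358 for Cdkn1a, 0.689 for Mdm2, 0.516 for Ccng1 and 0.572 for Bax, so that those of Cdkn1a, Mdm2 and Ccng1 changed sign with these libraries. For the other targets r over the 14 libraries was −0.491 for Sesn2, −0.24 for Zmat3, −0.169 for Bbc3, −0.101 for Trp53inp1 and −0.0867 for Phlda3. Bax alone was thus positive. Over all 16 they were −0.0791, 0.359, −0.329, 0.382 and −0.238, in the same order, so that Zmat3 and Trp53inp1 changed sign as well. Among the other genes of the set, Cdkn1a had its highest correlations over the 14 libraries with Phlda3 (r = 0.842), Bbc3 (r = 0.751) and Sesn2 (r = 0.743). These were 0.546, 0.506 and 0.767 over all 16. The share of all identifiers that reach such values was not computed. Among 9242 identifiers with a mean of at least 10 CPM, that most like Cdkn1a over all 16 libraries was ENSMUSG00000001785.13 (r = 0.933, and 0.919 over the 14), and that most like Trp53 was ENSMUSG00000076432.13 (r = 0.972, and 0.928 over the 14). These correlations describe libraries that share genotype, labelling time and depth.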

How the data were processed

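The authors deposited whole-number counts for each Ensembl gene and ERCC transcript of a library, without normalisation. The tools were HTSeq, HISAT2 2.1.0, Trimmomatic 0.38 and CASAVA, on build mm10, per the submitters' processing notes. The kit was stranded, but whether exons or whole genes were counted, and with which strand setting, is not given in the sources used here. Counts of overlapping genes are therefore uncertain. From these counts, genotype effects were tested with edgeR 4.0.16 (R 4.3.3), using the quasi-likelihood F-test with a robust fit, TMM scaling and the low count filter by group, which left 27488 of 54446 identifiers. P-values were Benjamini-Hochberg adjusted over all identifiers tested, with a threshold of 0.05. For the effect over EU times the model held EU time as a factor plus genotype, and for the others 8 group means. Standard errors come from the F statistic. Total counts ranged from 5109162 to 28502750 per library, and the 2 libraries of each group differed beyond sampling noise (chi-square per degree of freedom 3.589 to 23.51). The scripts were tested on simulated data.

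The 10 genes, the gene lists and the tests were chosen with earlier results of these data known, and the symbols of the 10 identifiers were supplied with the list. All 10 are named. Further gene lists, Mettl14 and cell type markers could not be matched and were not analysed here. Alternatives were DESeq2 1.42.0, other scalings and filters, the replicate number as a block, and fits without single libraries or the 30 min libraries. Deviations of same-numbered CKO and Control libraries of an EU time correlated with r = 0.00509 to 0.0148. The main tests did not pair them, and the labels do not say whether they share a culture or batch. Other settings of the fit without the 30 min libraries were added after seeing the data.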

Additional observations from a re-analysis of the deposited data

Results flagged for a closer look

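The genotype difference varied between EU times for 7 of the 10 genes (edgeR F-test, Benjamini-Hochberg adjusted p), which singled them out as differences between time points, as it did 46.6% of the identifiers with at least 10 CPM. The adjusted p was 1.48e-05 for Trp53, 1.32e-05 for Mdm2, 2.36e-07 for Ccng1, 0.000866 for Cdkn1a, 0.0400 for Sesn2, 1.84e-06 for Bax and 1.9e-06 for Trp53inp1. Without the 30 min libraries Trp53 (edgeR adjusted p = 0.0158) and Bax (adjusted p = 0.0400) stayed past the threshold (11.1% of those identifiers), and the other 5 did not. Sesn2 was called in 6 of the 16 fits that left out a library.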

How the results depend on the processing

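Each number of the 10 genes called is followed by the share called of the identifiers with at least 10 CPM. Without the 30 min libraries it was 5 (23.1%) instead of 1 (19%) over all EU times, 2 (10.4%) instead of 0 (7.56%) at 60 min and 2 (11.1%) instead of 7 (46.6%) for genotype by EU time. With DESeq2 it was 2 (31.8%) over all EU times, 2 (8.91%) at 20 min and 5 (19.9%) at 60 min, and in fits of 4 libraries alone 4 (21.9%) at 20 min and 4 (16%) at 60 min. A stricter count filter gave 1 (8.43%) at 60 min. The replicate block gave 2 (10.8%) at 60 min (Bax and Cdkn1a) and otherwise moved no count by more than 1.5 times. ERCC scaling called 10 genes at 10 min (91.5%) and 10 from 10 to 60 min in CKO (98.8%) and in Control (100.0%), and 9 over 10, 20 and 60 min (47.8%). It reversed Zmat3 at 10 min (log2 1.25), Trp53, Bax and Zmat3 from 10 to 60 min in CKO (1.35, 1.06 and 2.07) and Trp53 and Bax in Control (3.25 and 2.83). These changes follow from the ERCC counts, which set all genes of a library at once. Leaving out each library gave 1 to 1 gene over all times, 3 to 6 at 10 min, 1 to 2 at 20 min, 6 to 9 at 30 min, 0 to 2 at 60 min, 6 to 8 for genotype by EU time, 3 to 5 from 10 to 60 min in either genotype, and 3 to 5 over 10, 20 and 60 min, where 3 came without the first Control 10 min, the second Control 60 min or the first CKO 60 min library. Of 750 single-gene values under other settings, 657 kept their call, 32 lost it, 55 gained it and 6 reversed. Of 1400 with 1 library left out, 1317 kept it, 54 lost it and 29 gained it. Values not called either way changed sign 34 and 33 times and are counted as kept (largest size after the change 0.523 and 0.493). The settings of the fit over 10, 20 and 60 min were chosen after seeing the data. Other causes were not tested. Bbc3 and Phlda3 had the fewest counts of the 10 genes.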
